A study of Mus musculus with 6 samples.

Results

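Kcna5, Kcnd2 and Kcnh2 encode pore-forming subunits of voltage-gated potassium channels that repolarize the atrial action potential. The noncoding transcripts assembled at and around these 3 loci were examined in left atria with FOG2 overexpression (FOG2_OE, 3 libraries) and in wild-type left atria (WT, 3 libraries). A feature of the deposited table was taken as a member if it overlapped the annotated body of one of the genes (GENCODE M21, mm10). It was also taken if it overlapped no protein-coding gene and had the start of one of these 3 as the nearest protein-coding gene start within 100 kb. This gave 33 of 34518 features, of which 22 belonged to Kcna5, 2 to Kcnd2 and 9 to Kcnh2.

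All 6 libraries came from adult CD1 mice, an outbred strain. The groups are called DTG and NTG in the labels' protocols, and animals of both groups were kept off doxycycline for 1 week before the hearts were taken, so the WT animals share that treatment. The promoter that drives the FOG2 transgene and the cells in which it acts are not given in the sources used here, and whether a library holds 1 animal or a pool is not given either. RNA was depleted of ribosomal and of polyadenylated RNA, so the table describes noncoding and unprocessed transcripts, not the mature channel mRNAs. Computed back from the table, the effective depth of a library was 72430116 to 84867256 reads in FOG2_OE and 71146937 to 82212532 reads in WT, of which the listed features held 5.25% and 4.43%. The overexpressed gene was checked first. A feature at Zfpm2, which encodes FOG2, stood at 417 CPM (the counts-per-million scale, relative to that depth) in FOG2_OE and 0.484 CPM in WT, and the authors' deposited table gave it a log2 fold change of 9.74 with an adjusted p of 2.44e-117 (edgeR likelihood ratio test).

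Kv1.5, the product of Kcna5, carries the ultrarapid delayed rectifier current, which opens quickly on depolarization and is prominent in the atrium. Kv4.2, the product of Kcnd2, contributes to the fast transient outward current of early repolarization. The product of Kcnh2 is the ERG channel of the rapid delayed rectifier current, which acts late in repolarization, and its blockade lengthens the action potential. FOG2 is a zinc-finger cofactor that binds GATA transcription factors and modifies their activity. Noncoding RNA made near a gene often marks active promoters and enhancers, but its level is not the level of the gene's mRNA.

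Sequence is shown for 3 of the members that lie in an annotated promoter or exon, because it places each of them on the gene. One more, MSTRG.72230, overlaps exons of Gm45869 and of Gm33320 and is described with the Kcna5 locus. The features are named by the identifiers of the transcript assembly in the table. Each line below reads 5′ to 3′ on the gene's strand, with the bases inside the listed feature in capitals and the neighbouring bases in lower case. The first is the 250 bases before the RefSeq start of Kcnd2 (GRCm38.p6, chr6:21215096-21215345, + strand), of which MSTRG.68452 covers 192. The second is coding exon 12 of 15 of Kcnh2 (GENCODE M21, chr5:24321946-24322221, - strand), of which MSTRG.63150 covers 123 of 276 bases. The third is exon 5 of 5 of Gm45869, a long intergenic noncoding RNA gene upstream of Kcna5 (chr6:126549869-126550113, - strand), of which MSTRG.72169 covers 39 of 245 bases. MSTRG.72169 is 102 bases long, and the larger part of it lies past the 3′ end of Gm45869 and is not shown.
MSTRG.68452 at the Kcnd2 promoter: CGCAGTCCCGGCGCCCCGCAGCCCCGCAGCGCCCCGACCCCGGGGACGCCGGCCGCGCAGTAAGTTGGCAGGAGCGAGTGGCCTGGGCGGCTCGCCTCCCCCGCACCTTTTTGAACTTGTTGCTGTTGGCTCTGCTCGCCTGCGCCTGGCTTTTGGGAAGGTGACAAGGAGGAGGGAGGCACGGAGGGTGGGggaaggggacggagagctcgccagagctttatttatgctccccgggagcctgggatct
MSTRG.63150 in Kcnh2 exon 12: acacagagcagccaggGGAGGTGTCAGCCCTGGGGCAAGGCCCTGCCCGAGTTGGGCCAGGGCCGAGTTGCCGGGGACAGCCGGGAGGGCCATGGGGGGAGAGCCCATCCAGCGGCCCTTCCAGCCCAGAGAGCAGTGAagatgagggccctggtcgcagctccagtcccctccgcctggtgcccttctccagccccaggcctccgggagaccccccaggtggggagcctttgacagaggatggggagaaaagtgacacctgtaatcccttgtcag
MSTRG.72169 in Gm45869 exon 5: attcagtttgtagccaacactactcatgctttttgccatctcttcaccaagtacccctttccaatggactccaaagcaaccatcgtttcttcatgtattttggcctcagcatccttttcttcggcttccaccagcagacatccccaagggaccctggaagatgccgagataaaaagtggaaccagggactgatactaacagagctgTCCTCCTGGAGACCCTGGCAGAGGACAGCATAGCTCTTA

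These sequences were searched on both strands for AGATAA, letters of the GATA motif, and for AGGTGT, letters of the T-box motif, since the series title names TBX5. The Kcnd2 stretch held neither and was 68.8% G or C. The Kcnh2 exon held 2 matches to AGGTGT, 1 inside MSTRG.63150 and 1 outside it. The Gm45869 exon held 1 match to AGATAA, which lay outside MSTRG.72169. The RefSeq promoter windows searched at the 3 channel genes (250 bases before the start to 50 after) held neither motif. Of 32851 such windows, 11.2% held AGATAA and 13.7% held AGGTGT. The Kcnh2 window (chr5:24329542-24329841) lay inside the GENCODE gene body. The GENCODE start of Kcnh2 at chr5:24351604, from which distances are given here, was therefore not searched. A match or its absence describes these letters only.

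Of the 33 members, 16 had a positive and 17 a negative log2 fold change of FOG2_OE over WT. The authors' deposited table called 0 of them higher and 1 lower at an adjusted p under 0.05 (edgeR likelihood ratio test, Benjamini-Hochberg adjustment over all features). The background was 1.16% of all features called higher and 4.65% called lower. The unadjusted p in the authors' deposited table was under 0.05 for 7 members that were higher and 5 that were lower, against 4.52% and 12.5% of all features. The 7 that were higher all belonged to Kcna5, and the 5 that were lower belonged to Kcnd2 (1) and Kcnh2 (4). The sample columns of the table hold values fitted by the authors' model, which differ within a group only by library size. They therefore show no spread between replicates and no overlap or gap between groups, and the spread enters only through the authors' test and the standard errors (SE) that were computed back from it. For 7 of the 33 members the likelihood ratio was under 0.1, too small to solve a dispersion from, and their SE rests on that of features of like abundance. The labels do not say that the replicates are separate animals, so the p-values measure the spread between these libraries only. Depth was low here, since 30 of the 33 members had mean fitted counts under 20 per library, against 76.3% of all features.

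**Figure D1:**
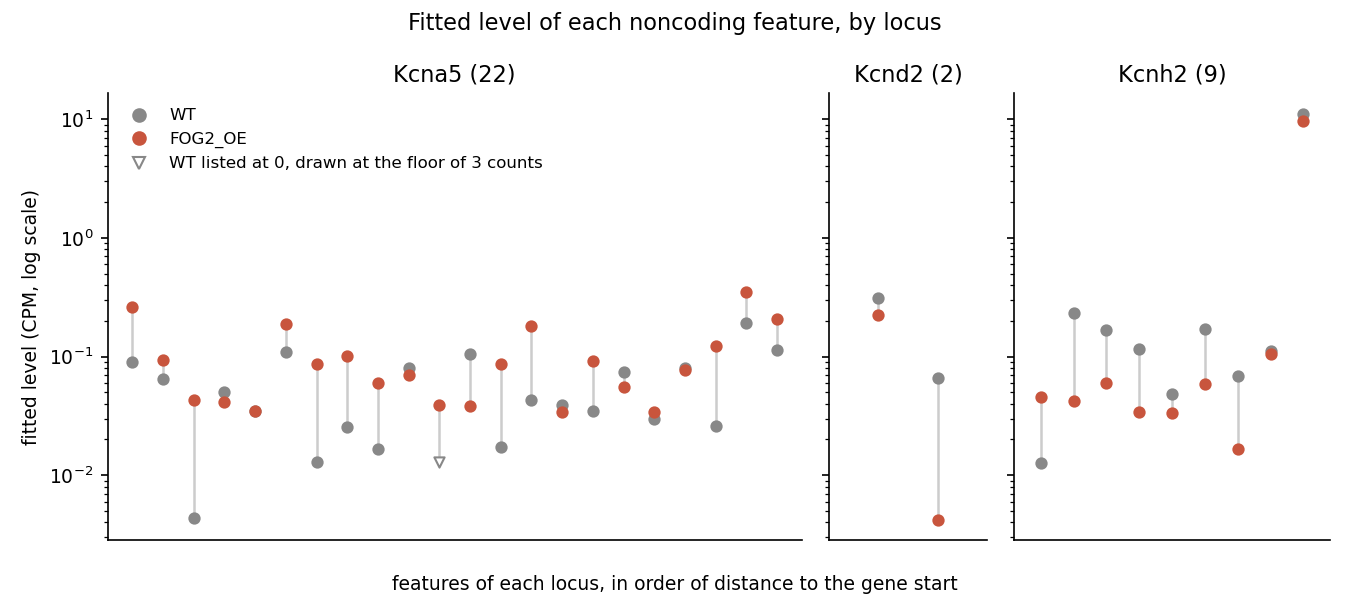
Fitted level in CPM (y axis, log scale) of each of the 33 features in WT (grey) and FOG2_OE (orange), with 1 panel per locus and features in order of distance to the gene start. Kcna5 features lie mostly higher in FOG2_OE and Kcnh2 features mostly higher in WT, and 1 Kcnh2 feature near 10 CPM stands far above all the others.

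The Kcna5 locus had 22 features, 15 with a positive and 7 with a negative log2 fold change, and a median log2 fold change of 0.85 against -0.21 over all features of the table. No feature overlapped Kcna5 itself, a gene of 2.86 kb on chr6:126532551-126535412 (- strand). Of the 22, 20 lay upstream at 14.4 to 54.3 kb from the gene start, and 2 lay past the 3′ end of the gene. All 22 were listed on the - strand like the gene, although the kit used for the libraries does not mark strand, so strand was not measured and reads of overlapping transcripts on opposite strands cannot be told apart. None of the 22 was called by the authors' deposited table, in which the lowest adjusted p was 0.066. Over all features, 39.4% had a positive log2 fold change. The features were short, 101 to 956 bases with a median of 190, and some may be pieces of 1 transcript, so they are not separate observations of the locus.

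Summed over the locus, FOG2_OE stood at 2.30 CPM and WT at 1.25 CPM in fitted level, a ratio of 1.84 (95% counting interval 1.59 to 2.13, from totals of 544 and 289 fitted counts). Counting intervals cover counting error only, not the spread between animals. Without the most abundant feature, which held 15.2% of the summed level, the ratio was 1.85, so no single feature set it. In bulk tissue, fewer cells of a type and less RNA per cell cannot be told apart, and this holds for every difference described here.

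MSTRG.72231, the most abundant feature of the locus (chr6:126586435-126587390, 51.0 kb upstream), had fitted counts of 27.7, 25.2 and 29.6 in the FOG2_OE libraries and 13.6, 15.0 and 15.7 in WT. FOG2_OE stood higher, and the authors' deposited table gave a log2 fold change of 0.86 (SE 0.54) with an adjusted p of 0.434. MSTRG.72215 (chr6:126527258-126527706) was the member closest to the Kcna5 start, 7.71 kb from it and past the 3′ end. Its fitted counts were 20.95, 19.1 and 22.3 in FOG2_OE and 6.42, 7.07 and 7.42 in WT, and the authors' deposited table gave a log2 fold change of 1.53 (SE 0.62) with an adjusted p of 0.129. MSTRG.72172, the third in mean level and the farthest upstream, stood at 0.207 CPM in FOG2_OE and 0.114 CPM in WT, and the authors' deposited table listed a log2 fold change of 0.85 at an adjusted p of 0.615. All 3 of these more abundant features were thus higher in FOG2_OE in fitted level without passing the test.

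The lowest adjusted p of the locus in the authors' deposited table, 0.066, was that of MSTRG.72213 (chr6:126575657-126576107, 40.2 kb upstream), a feature named after its values were seen. In FOG2_OE it had 14.4, 13.1 and 15.4 fitted counts and in WT 3.08, 3.39 and 3.56, and the authors' deposited table gave a log2 fold change of 2.03 (SE 0.74). With the median ratio of all features centred at 1, a shift of 0.21 on the log2 scale, its adjusted p was 0.0367, and the same centring called 1.62% of all features higher and 3.47% lower. MSTRG.72227 (chr6:126572401-126572535) had fitted counts of 3.08, 2.80 and 3.28 in FOG2_OE and was listed at 0 in all WT libraries. Against a floor of 3 counts over the WT group it was at least 2.99-fold higher in FOG2_OE, and its adjusted p in the authors' deposited table was 0.0689. MSTRG.72169, which overlaps the Gm45869 exon printed above in part, rested on totals of 10 fitted counts in FOG2_OE and 1 in WT. The ratio was 9.78 with a counting interval of 1.39 to 424. These last features hold so few counts that their size is hardly fixed.

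At the other end of the range, MSTRG.72171 (chr6:126573668-126573825) stood at 0.0386 CPM in FOG2_OE and 0.104 CPM in WT, and the authors' deposited table gave it a log2 fold change of -1.40 (SE 0.79) with an adjusted p of 0.340. MSTRG.72230 (chr6:126553993-126554806), which overlaps exons of the noncoding genes Gm45869 and Gm33320, had 3.30, 3.002 and 3.52 fitted counts in FOG2_OE and 3.60, 3.97 and 4.16 in WT. The groups were close, and the authors' deposited table listed a log2 fold change of -0.28 at an adjusted p of 0.931. With it, the remaining 6 features with a negative sign had log2 fold changes from -0.41 to -0.01 in the authors' deposited table. After centring on the median ratio of all features, 19 of the 22 Kcna5 features had a positive log2 fold change. By construction, features of the whole table are then positive about as often as negative.

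**Figure D2:**
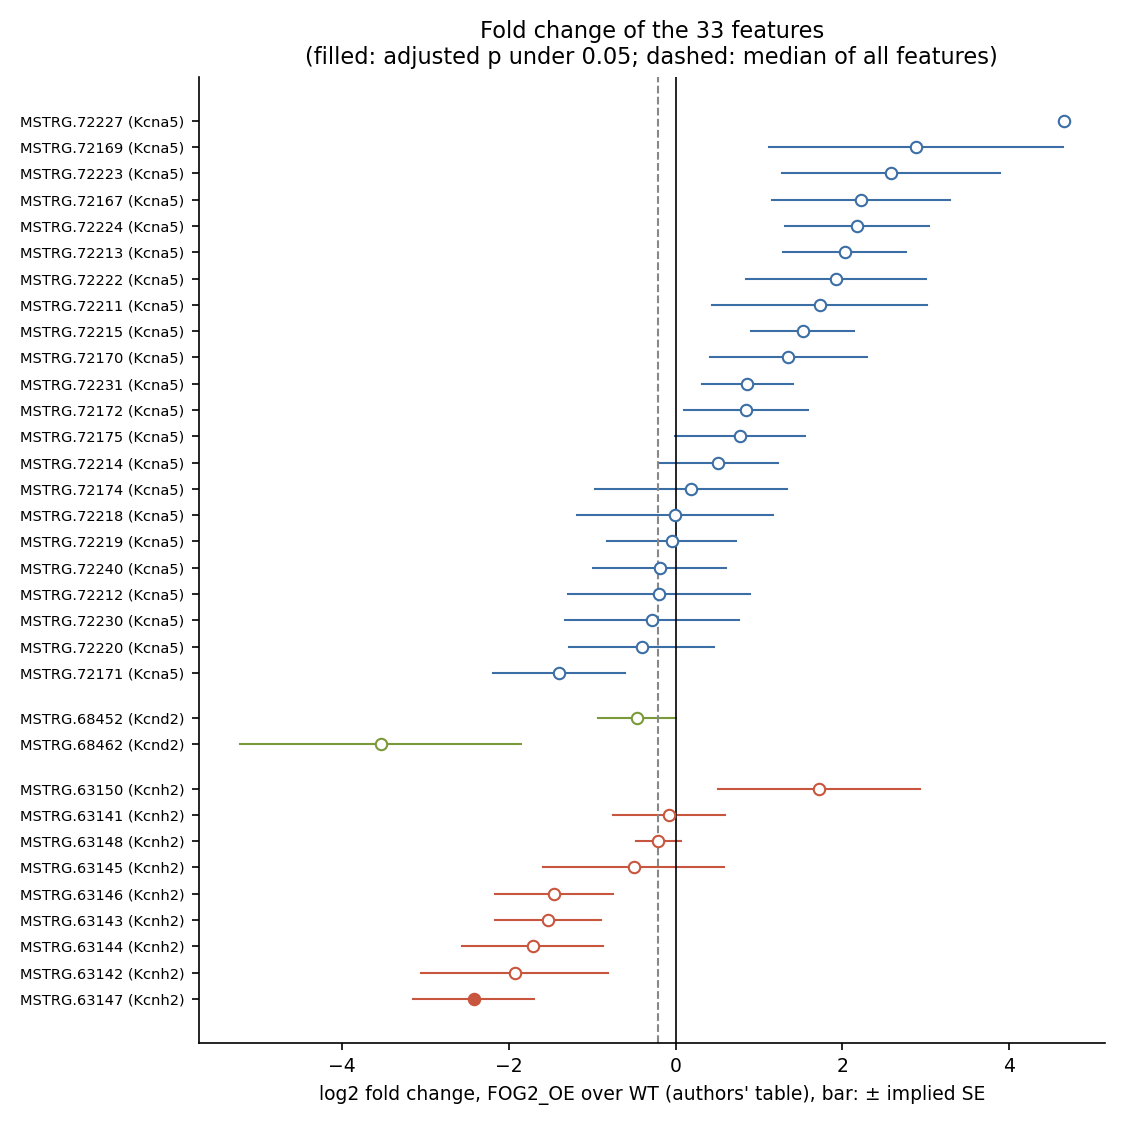
Log2 fold change of FOG2_OE over WT (x axis, authors' deposited table) for each of the 33 features, with bars of 1 implied SE, filled circles for an adjusted p under 0.05 and a dashed line at the median of all features. In the Kcna5 locus 15 of 22 circles lie to the right of 0, in the Kcnh2 locus 8 of 9 lie to the left, and 1 circle is filled; the feature listed at 0 in WT has no SE and no bar.

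The Kcna5 features did not end at the midpoint between Kcna5 and its neighbour Kcna1, which lies 55.5 kb from the Kcna5 start. Kcna1 encodes Kv1.1, another subunit of the same channel family. The last feature assigned to Kcna5 was MSTRG.72172 at 54.3 kb, and the first assigned to Kcna1, MSTRG.72176, lay 55.6 kb from the Kcna5 start and 55.2 kb from that of Kcna1, and the authors' deposited table listed a log2 fold change of 1.65 at an adjusted p of 0.294. Between the 2 genes, 54 features lined a span of 86.1 kb (chr6:126549806-126635852), 20 nearest to Kcna5 and 34 nearest to Kcna1, with a median gap of 924 bases, and they covered 25.9% of the span. This span was chosen after its values were seen. Of the 54, 42 had a positive log2 fold change, the median was 0.90, and the summed level was 7.91 CPM in FOG2_OE against 4.17 CPM in WT, a ratio of 1.90 (95% counting interval 1.75 to 2.05).

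The ratio was of like size along the span. In 20 kb steps from 10 to 110 kb upstream of the Kcna5 start it was 1.54, 1.71, 2.06, 1.75 and 2.34, the first step holding only 4 features. The authors' deposited table called 1 of the 54 features higher and none lower, against 1.16% and 4.65% of all features. In the same likelihood ratio test 12 features had an unadjusted p under 0.05, each of them higher. Over all features that share was 4.52% higher and 12.5% lower. The called feature was MSTRG.72234 (chr6:126599269-126600500, 63.9 kb upstream of Kcna5 and nearest to Kcna1), at 0.545 CPM in FOG2_OE and 0.142 CPM in WT. Its log2 fold change was 1.92 (SE 0.53) in the authors' deposited table, where the adjusted p was 0.00969. An F reference with 10 degrees of freedom, which allows for an estimated dispersion, gave MSTRG.72234 an adjusted p of 0.148. The 10 is a chosen setting, since 6 libraries in 2 groups leave 4 residual degrees of freedom. Beyond Kcna1 lies Kcna6, which encodes Kv1.6; its 10 features summed to 2.04 CPM in FOG2_OE against 1.14 CPM in WT, and none was called in the authors' deposited table.

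**Figure D3:**
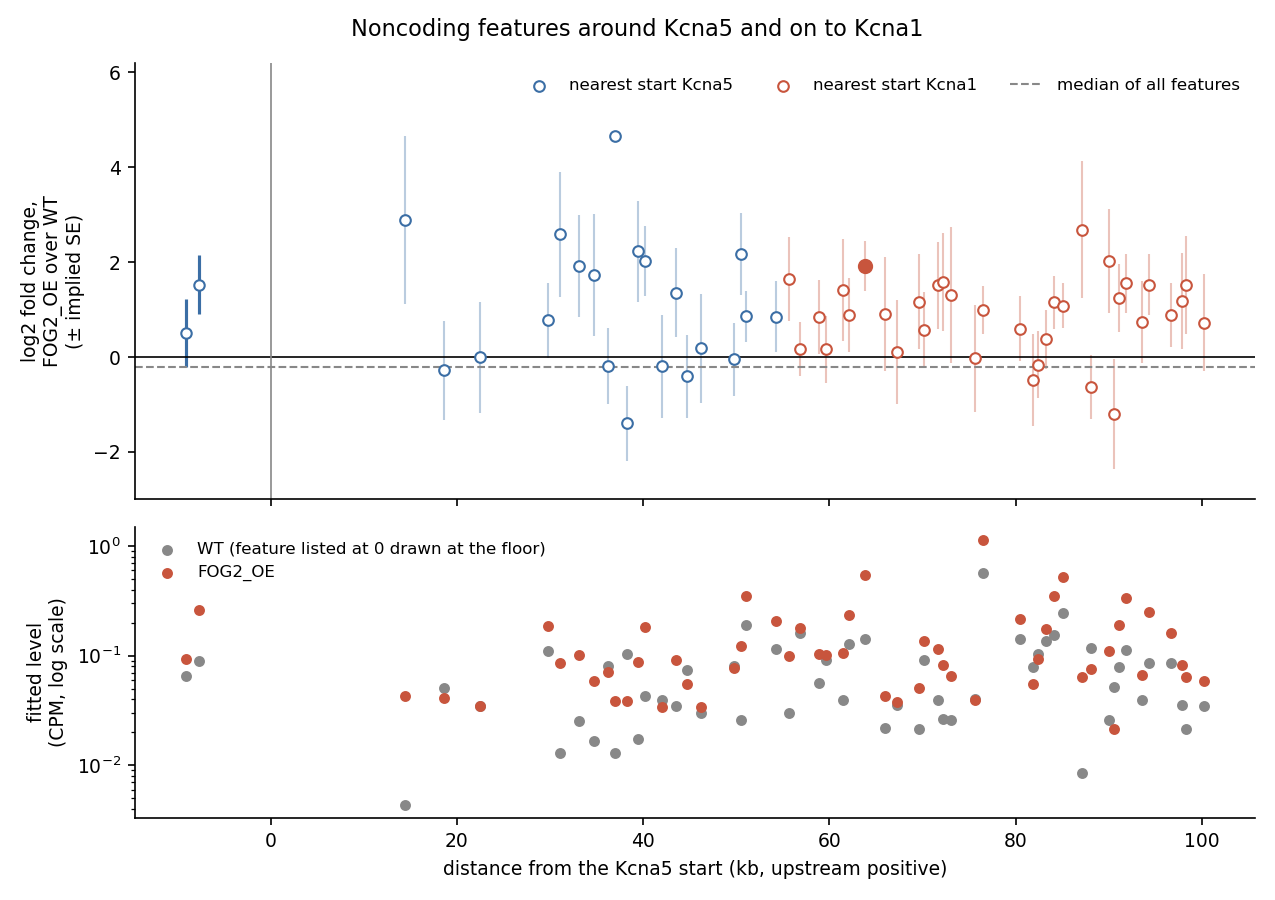
Upper panel, log2 fold change of FOG2_OE over WT (bars of 1 implied SE) against the distance from the Kcna5 start in kb, for the features nearest to Kcna5 (blue) and to Kcna1 (orange); the filled circle has an adjusted p under 0.05. Lower panel, the fitted level of the same features in CPM on a log scale; most FOG2_OE points lie above the WT points on both sides of the midpoint at 55.5 kb.

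Kcnd2 is a gene of 514 kb (chr6:21215503-21729805, + strand), and only 2 features were listed for it. Both stood lower in FOG2_OE, and neither was called. MSTRG.68452 (chr6:21214855-21215287, listed on the + strand) ended 216 bases before the GENCODE start of the gene and 59 bases before the RefSeq start, and its overlap with the promoter is printed above. Its fitted counts were 18.01, 16.4 and 19.2 in FOG2_OE and 22.2, 24.5 and 25.7 in WT. The authors' deposited table gave a log2 fold change of -0.46 (SE 0.47) with an adjusted p of 0.675, a difference within its own SE. MSTRG.68462 (chr6:21357263-21357386, listed on the - strand, opposite to the gene) lay in an intron 142 kb into the gene. Its fitted counts were 0.336, 0.305 and 0.358 in FOG2_OE and 4.69, 5.17 and 5.42 in WT. Its totals of 1 and 15 fitted counts gave a ratio of 0.0652 with a 95% counting interval of 0.00155 to 0.424. The authors' deposited table gave an unadjusted p of 0.00457 and an adjusted p of 0.0683. Together the 2 features stood at 0.230 CPM in FOG2_OE and 0.379 CPM in WT, a ratio of 0.609 (counting interval 0.428 to 0.866).

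The 9 features of Kcnh2 (chr5:24319589-24351604, - strand, 32.0 kb) included the 1 member that passed the test. MSTRG.63147 (chr5:24315822-24316274, 453 bases, listed on the - strand) lay 3.31 kb past the 3′ end of the gene. The FOG2_OE libraries had 3.35, 3.05 and 3.57 fitted counts of it and the WT libraries 16.5, 18.2 and 19.1. That is 0.0421 CPM in FOG2_OE against 0.233 CPM in WT. It fell by 2.42 on the log2 scale (SE 0.73) in the authors' deposited table, where the adjusted p was 0.014. Centring the median ratio at 1 gave an adjusted p of 0.0351. With an F distribution of 10 degrees of freedom, a chosen setting, the adjusted p of MSTRG.63147 was 0.163. Under that reference 0.203% of all features were called higher and 1.07% lower, and none of the 33 members. With the 4 residual degrees of freedom that the design leaves, its adjusted p was 0.693.

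Across the Kcnh2 locus, 8 of 9 features had a negative log2 fold change, with a median of -1.46 against -0.21 over all features. The other 7 with a negative sign formed a group 46.1 to 59.9 kb past the 3′ end (chr5:24259652-24273441), and none of them was called in the authors' deposited table. The longest, MSTRG.63148 (7100 bases), held 94.0% of the summed level of the locus and was more abundant than 99.1% of all features of the table. Its fitted counts were 766, 697 and 816 in FOG2_OE and 790, 870 and 913 in WT, or per length 1.36 and 1.56 CPM per kb. FOG2_OE and WT were close, and the authors' deposited table gave a log2 fold change of -0.21 (SE 0.27) with an adjusted p of 0.766. This value is close to the median over the whole table, and after centring on that median it was 0.01. MSTRG.63141 also turned positive with this centring, at 0.13, and the other Kcnh2 features kept their sign.

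The 6 smaller features of the group lay 3′ of the Kcnh2 gene end and before MSTRG.63148 in the direction of transcription. They summed to 0.307 CPM in FOG2_OE against 0.681 CPM in WT, 2.22 times as much in WT (95% counting interval 1.67 to 2.96). The most abundant of them by mean level, MSTRG.63143, stood at 0.0587 CPM in FOG2_OE and 0.172 CPM in WT, and the authors' deposited table listed a log2 fold change of -1.53 (SE 0.64) at an adjusted p of 0.140. The adjusted p of the other 5 ran from 0.241 to 0.973. The sum over the whole locus, 10.01 CPM in FOG2_OE and 12.0 CPM in WT, was set by MSTRG.63148. WT stood 1.201 times as high with it (counting interval 1.14 to 1.27) and 2.35 times as high without it (1.83 to 3.01).

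MSTRG.63150 was the only member inside the body of Kcnh2 and the only one of the locus with a positive sign. It lay within the coding exon printed above and was listed on the + strand, opposite to the gene. Strand was not measured, so the reads of MSTRG.63150 cannot be told apart from those of Kcnh2 transcripts. It had 3.65, 3.31 and 3.88 fitted counts in FOG2_OE and 0.909, 1.001 and 1.05 in WT. Totals of 11 and 3 fitted counts gave a ratio of 3.59 with a 95% counting interval of 0.947 to 20.02. The authors' deposited table gave an adjusted p of 0.438. The interval includes equal levels, so no difference was detectable at this depth.

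**Figure D4:**
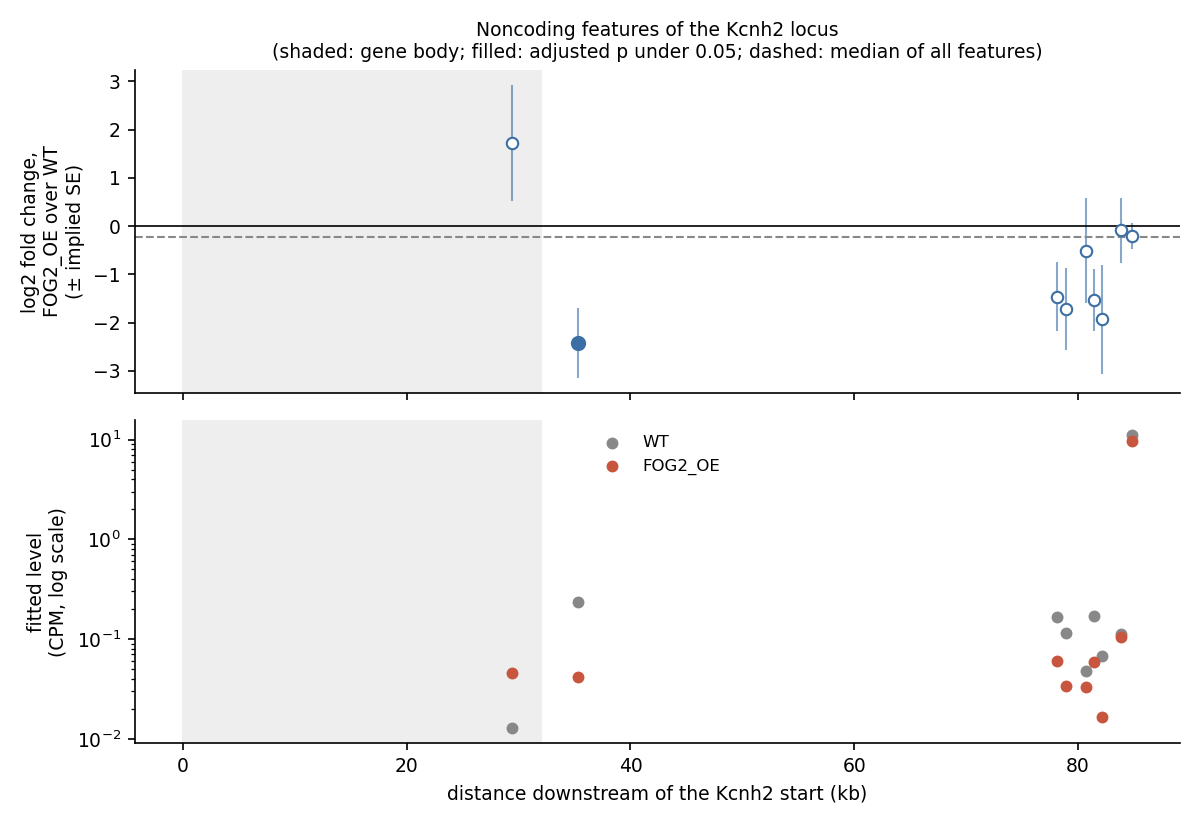
Upper panel, log2 fold change of FOG2_OE over WT (bars of 1 implied SE) for the 9 Kcnh2 features against the distance downstream of the gene start in kb, with the gene body shaded and the feature with an adjusted p under 0.05 filled. Lower panel, their fitted level in CPM on a log scale in WT (grey) and FOG2_OE (orange); the filled feature lies 3.31 kb past the gene, and the abundant MSTRG.63148 at the far right has nearly the same level in both groups.

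On the outer side of the Kcnh2 group, the next feature, MSTRG.63138, lay 93.7 kb from the Kcnh2 start but closer (92.8 kb) to that of Nupl2, and the authors' deposited table gave it a log2 fold change of -0.38 with an adjusted p of 0.885. On the other side the next feature was MSTRG.63180, 61.1 kb from the Kcnh2 start and next to Asic3, and the authors' deposited table listed a log2 fold change of 2.85 at an adjusted p of 0.185. No further feature lay within 100 kb of the Kcnd2 gene.

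The other channel genes were described from 5 lists of 100 genes in all, with features assigned by the same rule. Of these genes, 42 had features, 216 in number, and 12 had at least 1 feature called by the authors' deposited table. These calls were 11 higher and 40 lower, and the 216 features had a median log2 fold change of -0.05. Among other voltage-gated subunits, 14 of 24 genes had features and 2 of 83 features were called higher and 7 lower, with a median log2 fold change of 0.23. The calls were Kcna1 (1 higher), Kcng1 (1 higher), Kcna4, a subunit of the slow transient outward current (5 lower), and Kcnv2 (2 lower). The 6 Kcna4 features summed to 36.5 CPM in FOG2_OE against 139 CPM in WT. Kcnd3, which encodes Kv4.3 and is closely related to the product of Kcnd2, had 7 features with a median log2 fold change of -1.56, none of them called. Among the delayed rectifier and ether-a-go-go channels, the family of Kcnh2, 4 of 12 genes had features and none of 10 was called in the authors' deposited table, although 1 higher and 1 lower feature had an unadjusted p below 0.05.

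Auxiliary subunits gave the most calls. Of 37 features at 3 of 14 genes, the authors' deposited table called 19 lower and none higher, and all 19 belonged to Kcnip4, which encodes a Kv4 channel-interacting protein. The 23 Kcnip4 features summed to 0.295 CPM in FOG2_OE against 25.0 CPM in WT. Of 41 features of inward rectifier, two-pore and calcium-activated channels, 1 was called higher (Kcnj15) and 10 lower. The lower ones were 9 features of Kcnj3, which encodes a subunit of the acetylcholine-activated channel, and 1 of Kcnj12. At genes of depolarizing currents, the authors' deposited table called 6 features of Hcn4, the main pacemaker channel, higher and 1 feature of Cacna1c, the L-type calcium channel, lower. The Kcna5, Kcnd2 and Kcnh2 loci had 1 call in 33 features, and a difference in the share of calls from these lists was not tested.

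Among the 13 listed genes with 5 or more features, those with the log2 ratio of summed levels (FOG2_OE over WT, 2 groups only) nearest to Kcna5 at 0.88 were Kcna6 at 0.83, Kcna1 at 0.96 and Kcnab1 at 0.25. For Kcnd2, at -0.72, they were Kcng2 at -0.68, Kcnh7 at -0.79 and Cacnb2 at -0.19. For Kcnh2, at -0.26, they were Cacnb2 at -0.19, Slc8a1 at -0.03 and Kcng2 at -0.68. With only 2 groups this likeness is in 1 number, and it says nothing of a shared pattern across conditions.

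**Figure D5:**
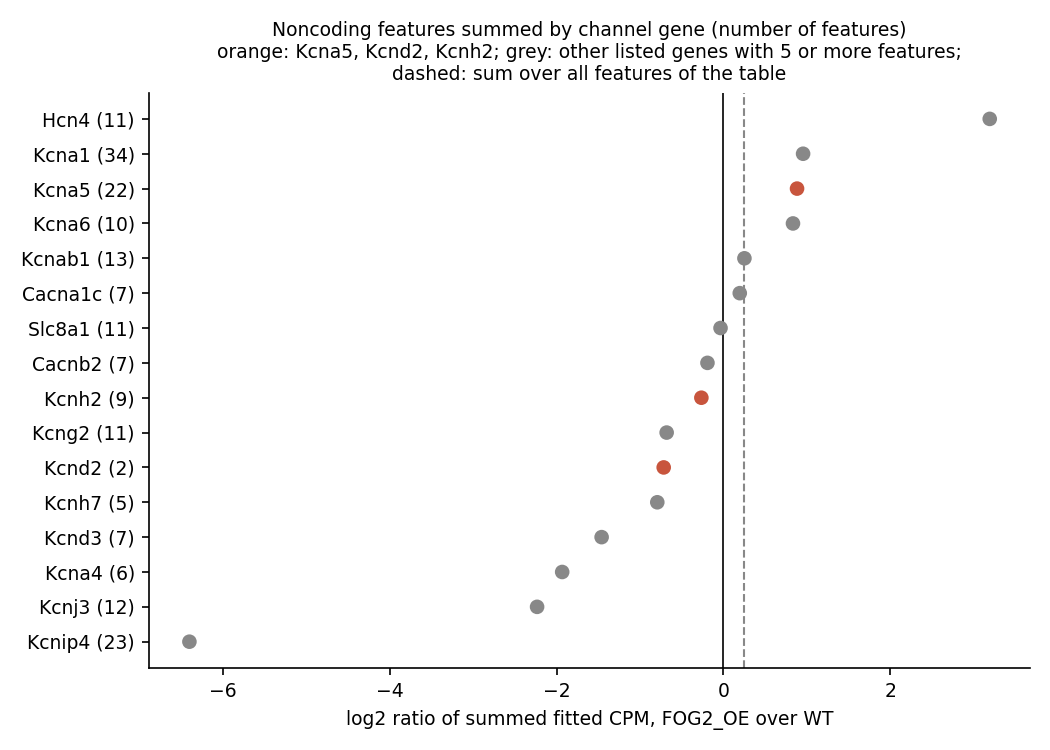
Log2 ratio of summed fitted CPM, FOG2_OE over WT (x axis), for Kcna5, Kcnd2 and Kcnh2 (orange) and the 13 other listed channel genes with 5 or more features (grey), with the number of features in parentheses and a dashed line at the ratio of the whole table. Kcna5 lies at 0.88 beside Kcna6 and Kcna1, while Kcnip4 is the lowest of all.

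The labelled tissue was checked with noncoding features at marker genes. Atrial cardiomyocyte markers had 122 features at 8 of 9 genes (none at Myh6), which summed to 82.8 CPM in FOG2_OE against 129 CPM in WT. The authors' deposited table called 2 of them higher and 16 of them lower; Kcnj3 is in this list too. Ventricular markers had 10 features, none of them at Myl2, Irx4 or Hey2, at 1.08 and 1.22 CPM. Fibroblast markers stood at 14.0 CPM in FOG2_OE and 13.9 CPM in WT, endothelial at 3.63 and 2.82, macrophage at 0.191 and 0.178, smooth muscle and pericyte at 0.458 and 0.248, adipocyte at 1.92 and 2.58, and neuron and Schwann cell at 0.923 and 0.957. Of these 6 lists, the authors' deposited table called 1 feature, that of Acta2, a smooth muscle gene, which stood higher at 0.221 CPM in FOG2_OE against 0.00433 CPM in WT. Without Acta2 the smooth muscle and pericyte sum was 0.237 CPM in FOG2_OE against 0.244 CPM in WT. Over all features the ratio of FOG2_OE to WT was 1.18. Sums were higher in FOG2_OE, as at Kcna5, for the endothelial (ratio 1.28), smooth muscle and pericyte (1.845), macrophage (1.07) and fibroblast (1.004) lists. They were lower, as at Kcnd2 and Kcnh2, for the atrial (0.642), ventricular (0.886), adipocyte (0.742) and neuron and Schwann cell (0.965) lists. The largest part of the atrial sum was Ttn (51.9 CPM in FOG2_OE, 65.9 CPM in WT). Within these lists, endothelial Kdr, fibroblast Pdgfra, Dcn and Tcf21, macrophage Cd68 and smooth muscle Myh11 stood lower in FOG2_OE, against their list's sum. Atrial Myl4, Nppa and Tbx5 and adipocyte Lep stood higher, also against it. The other genes with features went the way of their list's sum. The part of these cell types in the differences at the loci was not tested.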

How the data were processed

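Left atrial RNA of 6 libraries (3 FOG2_OE, 3 WT, grouped by the genotype in the labels) was analysed from 1 deposited table of 34518 features. Per the labels' protocols, ribosomal and polyadenylated RNA were removed and the libraries prepared with the TruSeq RNA v2 kit, which is not stranded. STAR, HTSeq (0.6.0), edgeR, deepTools and mm10 are listed, without their roles, per the submitters' processing notes. The authors' deposited table gives each feature the log2 fold change and log2 CPM, the score of a likelihood ratio test, its p-value and the Benjamini-Hochberg adjusted p-value. Its 6 sample columns are constant multiples of one another within a group (relative spread 1.81e-14), so they are fitted values of the authors' model (unit: other), not counts. The count test that would have been used on counts was therefore not run, and the authors' test was the main result, as planned for this case.

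Effective library sizes were solved from 718 well-covered features (scale from 152), which gave CPM. The dispersion was solved from the likelihood ratio for 28194 of 34518 features (26 of the 33 members) and taken from features of like abundance where that ratio was under 0.1 (7 members), which gave the implied SE; the median SE over all features was 0.749 and the median biological coefficient of variation 49.4%. Sums were compared with exact binomial 95% intervals on rounded fitted totals, and 3 counts served as the floor. The calculation was tested on simulated data. Positions are 1-based on mm10; genes are from GENCODE M21 and promoters from RefSeq GRCm38.p6. Python 3.11.15, numpy 2.4.6, scipy 1.17.1, pandas 2.3.3 and matplotlib 3.10.9 were used. The labels name no batch.

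Alternatives were another centring, F references with 10 and 4 degrees of freedom, a minimum of 20 fitted counts and Benjamini-Yekutieli adjustment. Others were gene bodies only, a 50 kb limit, and sums without the most abundant feature. Of the F references, 4 is the residual number of the design and 10 a chosen setting. Features described in full were those called; in each locus the 3 highest in mean level, the one nearest the start, and the highest and lowest fold change; and those in an exon. Of other channel genes, those with a called feature and the 3 nearest in summed ratio were named, except that some are not reported here. The members and the lists were chosen with earlier results of these data known.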

Additional observations from a re-analysis of the deposited data

How the results depend on the processing

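The 1 call among the 33 members (MSTRG.63147, lower) depended on the reference distribution. There were 2 calls (1 higher, MSTRG.72213, and 1 lower) with the median ratio centred at 1 and 1 call with a 50 kb limit, which left 23 features. There were 0 calls with the F distribution of 10 degrees of freedom, where the unadjusted p was below 0.05 for 5 higher and 3 lower features. With 4 degrees of freedom there were 0 calls, and the unadjusted p was below 0.05 for 2 higher and 2 lower features. With edgeR's likelihood ratio test the unadjusted p was below 0.05 for 7 higher and 5 lower features, against 4.52% and 12.5% of all features. Over all features, centring called 1.62% higher and 3.47% lower, and the F distribution of 10 degrees of freedom 0.203% and 1.07%. Such shares were not worked out for 4 degrees of freedom, other adjustments or the unadjusted F p-values. Those counts are therefore not a result about these loci. Benjamini-Yekutieli adjustment gave 0 calls. There were also 0 calls among the 3 features with at least 20 fitted counts and 0 among the 2 inside gene bodies. Both of these settings leave MSTRG.63147 out, so they say nothing of its call. The adjusted p of MSTRG.63147 ran from 0.014 to 0.693 over the settings that kept it. The ratio of summed levels (FOG2_OE over WT) moved from 1.84 to 2.14 for Kcna5, from 0.832 to 0.966 for Kcnh2 and from 1.90 to 2.20 for the span between Kcna5 and Kcna1 with the centring; that span and its alternatives were chosen after seeing the data. For Kcnd2 the ratio was 0.609, and 0.064 for the gene body or without the most abundant feature. For Kcnh2 it was 3.58 for the gene body, which holds 1 feature, 0.358 within 50 kb and 0.426 without the most abundant feature. Centring turned the sign of 6 members and kept that of 27: the log2 fold changes became 0.0077 for MSTRG.63148, 0.13 for MSTRG.63141, 0.21 for MSTRG.72218, 0.0226 for MSTRG.72240, 0.0168 for MSTRG.72212 and 0.17 for MSTRG.72219. No gene body value exists for Kcna5, which no feature overlaps. No paired analysis was possible because the sample columns hold fitted values, which carry no deviation of a single library; for the same reason leaving out a replicate and other count normalizations (TMM, DESeq2 size factors) were not run.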
